A study of Mus musculus with 9 samples.

Results

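The genes described here encode the proteins of the cytosolic ribosome, measured in mouse white adipose tissue. They were chosen by symbol: Rpl or Rps followed by a number, with at most a short suffix, together with Rpsa, Rplp0, Rplp1 and Rplp2 and without pseudogene symbols. The rule found 63 of the 19505 genes that the array's annotation names with 1 symbol. Of these, 39 belong to the large (60S) and 24 to the small (40S) subunit, and each is read by 1 transcript cluster, the probe set of a gene. The rule leaves near symbols such as Rpl36al, Rps27rt and Rps23rg1 outside, and Rplp2, Rpl13a, Rpl10, Rps27 and Rps27a were not analysed here.

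The 9 arrays fall into 3 groups of 3 male mice each: C57BL/6JHamSlc-ob/ob mice given 100 mg/kg of the extract VE (from rice bean, Vigna umbellata) by oral gavage, ob/ob mice given vehicle, and C57BL/6JHamSlc-+/+ wild type mice given vehicle. Mice entered the study at 6 weeks of age, treatment ran for 6 weeks, and all groups ate standard chow. The ob/ob mice lack leptin, the satiety hormone of fat cells, throughout life, and both ob/ob groups carry this deficiency. The fat depot and the vehicle were not stated, and 1 Clariom S array was run for each sample.

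Ribosomal proteins are assembled on ribosomal RNA in the nucleolus, and their genes are usually expressed in concert. Their mRNAs belong to the TOP class, which starts at a C followed by a run of pyrimidines. Through that run, translation of these mRNAs follows the nutrient and insulin sensor mTORC1. In fat, as in other tissues, ribosome content is one determinant of how much protein a cell can make.

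The start of the transcript is shown because the pyrimidine run defines the class. RefSeq promoter sequences (build GRCm38.p6) were matched to 50 of the 63 genes. A C at an annotated start followed by at least 4 C or T was present in 12 of the 50 (24.0%), against 2.721% of the 15691 array genes with such a sequence. The 8 windows below run from 30 bases before the annotated start to 20 bases from it, and capitals mark the run from the start. They were picked for genes the results turn on, except Rps10 and Rpl35a, which stand for genes with a run and a small difference, and Rpl22l1 has no run at its annotated start.
Rpl28 (chr7:4792935-4792984, plus strand): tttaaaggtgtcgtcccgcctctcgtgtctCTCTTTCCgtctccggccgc
Rpl38 (chr11:114668550-114668599, plus strand): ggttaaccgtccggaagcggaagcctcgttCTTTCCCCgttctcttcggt
Rpl15 (chr14:18270967-18271016, minus strand): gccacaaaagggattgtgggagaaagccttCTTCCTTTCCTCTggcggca
Rps18 (chr17:33955646-33955695, minus strand): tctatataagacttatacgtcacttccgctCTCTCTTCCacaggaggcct
Rps6 (chr4:86857348-86857397, minus strand): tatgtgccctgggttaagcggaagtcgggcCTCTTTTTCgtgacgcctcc
Rps10 (chr17:27635225-27635274, minus strand): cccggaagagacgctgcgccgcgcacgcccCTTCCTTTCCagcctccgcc
Rpl35a (chr16:33056452-33056501, plus strand): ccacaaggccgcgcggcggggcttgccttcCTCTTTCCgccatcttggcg
Rpl22l1 (chr3:28805478-28805527, plus strand): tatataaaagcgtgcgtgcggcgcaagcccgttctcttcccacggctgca

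Annotated starts may differ from the starts used in adipose tissue, which were not measured. The other members with a run were Rpl14, Rpl32l, Rpl35, Rps15a and Rps21, and the run was longest in Rpl15, at 13 bases. Over 250 bases before to 50 after the start, on either strand, CCGGAAG occurred in 21 of the 50 genes (42.0%), against 13.237% of array genes. AAGATGGC occurred in 4 (8.0%, against 3.639%) and TATAAA in 7 (14.0%, against 14.569%). A CCGGAAG followed directly by ATGGC would count for both of the first motifs. These matches describe letters in a window and are not binding sites.

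All values are log2 signals after the submitters' normalization, and they are compared between arrays, never between genes, because probes differ in brightness. The members were bright: 60 of 63 lay above their array's median on all 9 arrays, while array medians spanned 6.11 to 6.26. Ribosomal protein genes have many near-identical processed copies in the mouse genome, and how far such copies add to a probe set's signal was not tested. In bulk tissue, fewer cells of a type and less RNA per cell cannot be told apart. The adipocyte markers had medians of 15.46 to 17.66 on the 9 arrays and were bright on each. Markers of epithelial cells, which are not adipose cells, had medians of 7.89 to 10.17 on the wild type arrays and 4.22 to 4.84 on the 6 ob/ob arrays.

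The members were read together on each array by their median deviation from each gene's own mean over 9 arrays. This deviation was 0.53, 0.21 and 0.30 on VE arrays 1 to 3, 0.25, −0.54 and −0.29 on arrays 1 to 3 of ob/ob vehicle, and −0.37, 0.19 and −0.24 on those of wild type. All 3 VE arrays were above 0, whereas in each vehicle group 1 array was above 0 and the other two below. The vehicle-treated ob/ob array 1 lay among the VE arrays, so the groups overlapped on this measure.

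**Figure D1:**
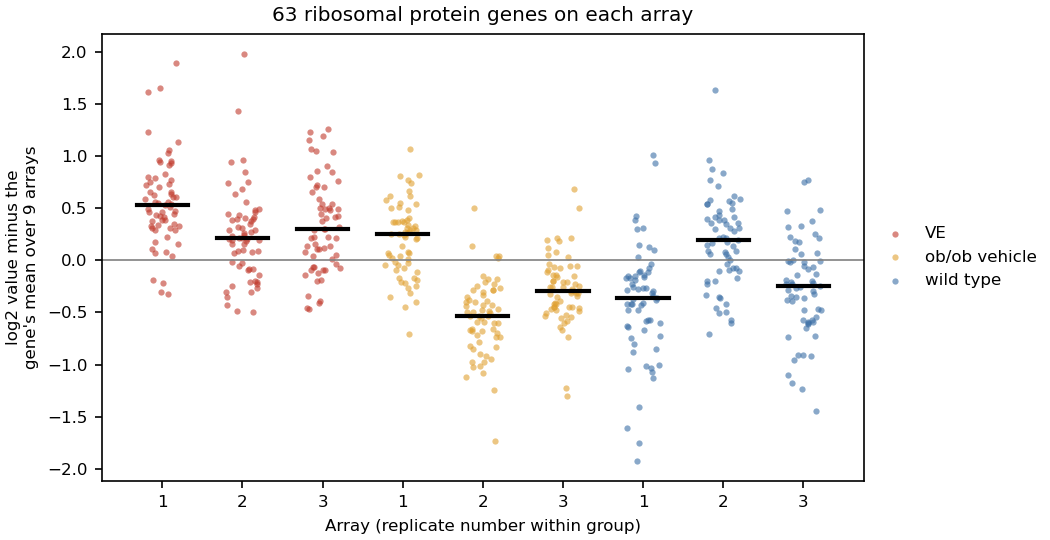
Each point is 1 of the 63 ribosomal protein genes on 1 array, and the vertical axis gives its log2 value minus its mean over the 9 arrays. Black bars are array medians, which lie at 0.53, 0.21 and 0.30 with VE, 0.25, −0.54 and −0.29 in ob/ob vehicle and −0.37, 0.19 and −0.24 in wild type.

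Most members shared these shifts of single arrays. Within the vehicle-treated ob/ob group, array 1 held the highest value for 52 of 63 members and array 2 the lowest for 47, while array 1 was highest for 37.07% of all clusters. Among VE arrays, array 1 was highest for 45 members. Among wild type arrays, array 2 was highest for 47 and array 1 lowest for 41. The median SD of a member was 0.23 in VE, 0.38 in ob/ob vehicle and 0.40 in wild type, against 0.26, 0.30 and 0.41 over all clusters. Pooled over the groups, the SD between arrays of the members' median deviation was 0.30.

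The effect of the extract was addressed by setting VE against ob/ob vehicle. Most members read higher with VE: 54 of 63 differences were above 0 and 9 below, with a median log2 difference of 0.51, against −0.02 over all 19572 clusters, of which 46.5% were above 0. The middle 50% of members lay between 0.29 and 0.91, and 12 members were more than 2-fold higher. No member passed the test, an adjusted p under 0.05 in limma's moderated test over all clusters, and the lowest adjusted p was 0.142. In that test 0.0255% of all clusters were called higher and 0% lower. At an unadjusted p under 0.05 with a fold over 1.1, 22 members were higher and 0 lower, against 2.91% and 1.66% of all clusters.

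The 3 VE and the 3 ob/ob vehicle arrays did not overlap for 28 members. In 26 of them (41.27%) VE was higher, against 5.77% of all clusters, and in 2, Rpl27 and Rpl39l, VE was lower, against 6.79%. Because genes of a shared array move together, these counts are not 63 independent readings. Set against the mean of VE, the members' median difference was 0.18 for ob/ob vehicle array 1, 0.91 for array 2 and 0.59 for array 3. The number of members with VE above the array was 40, 58 and 55 in the same order. Without array 1 the median difference was 0.74, 59 members were above 0 and 47 did not overlap upward (74.6%, against 12.13% of all clusters). Without array 2 the median was 0.32, and 27 did not overlap upward (42.86%, against 9.457% of all clusters). Without array 3 the median was 0.44, and 26 did not overlap upward (41.27%, against 10.16%). Quantile normalization gave 0.34 with 52 members above 0, and centring each array on its median gave 0.50 with 54.

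**Figure D2:**
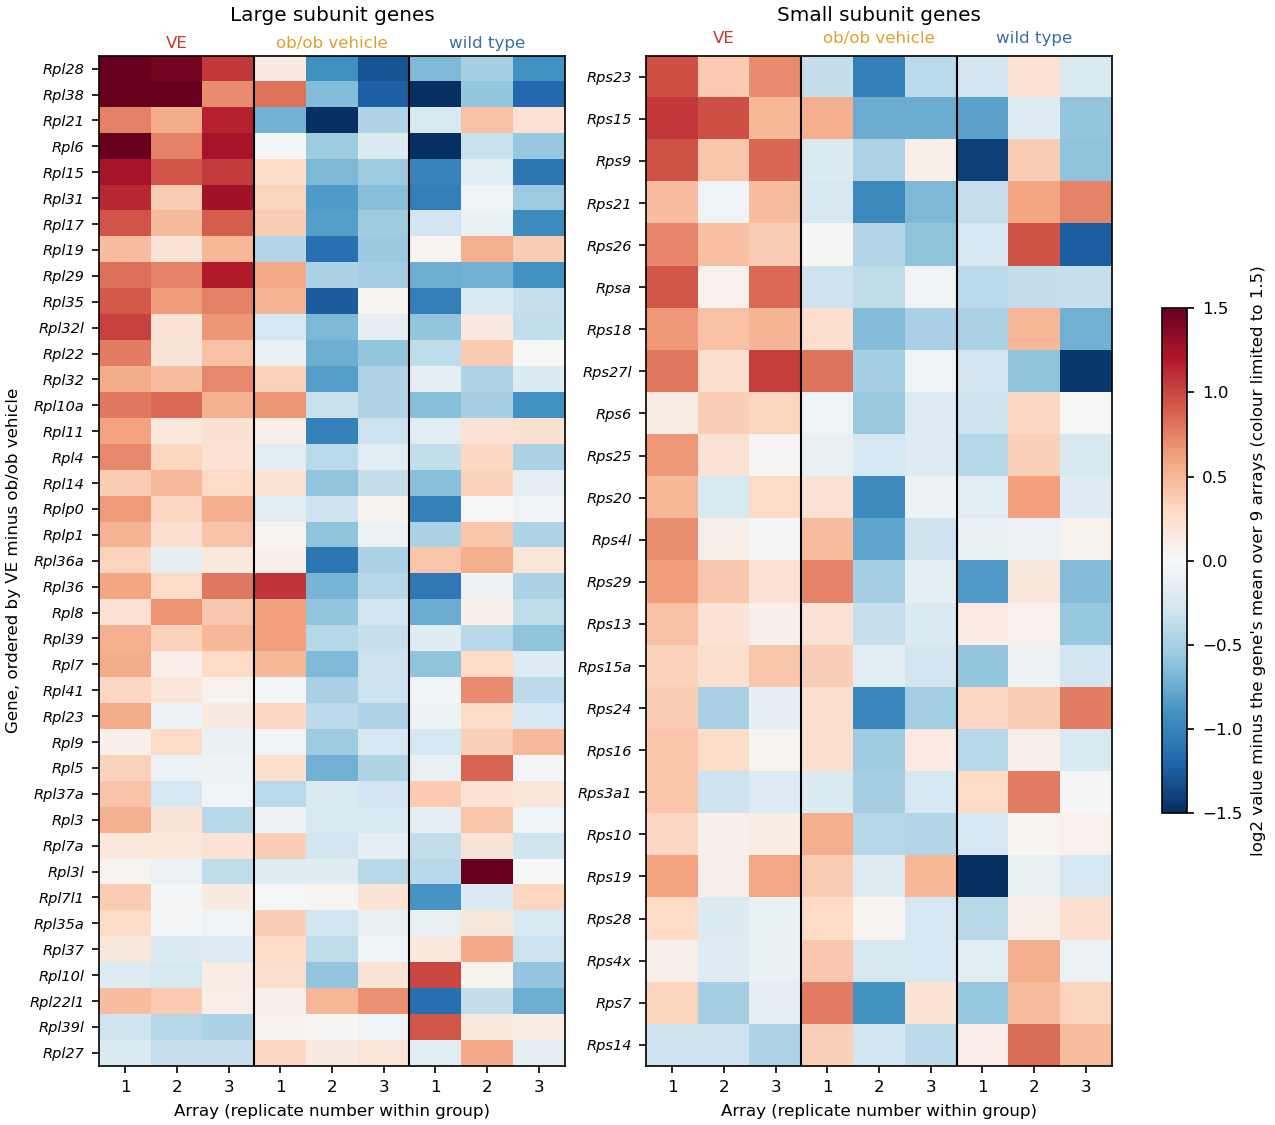
Each row is a ribosomal protein gene, each column an array, and colour gives the log2 value minus the gene's mean over 9 arrays, limited to 1.5 either way, with large subunit genes left, small subunit genes right and rows ordered by VE minus ob/ob vehicle. The VE columns are mostly red from Rpl28 and Rps23 downward, and the lowest rows (Rpl27, Rpl39l, Rps14) are blue with VE. The columns of ob/ob vehicle arrays 2 and 3 and of wild type arrays 1 and 3 are mostly blue.

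Large subunit genes had the widest differences. Rpl28, a protein of the large subunit that budding yeast lacks, read 16.19, 15.97 and 15.60 on VE arrays, 14.67, 13.62 and 13.24 on ob/ob vehicle arrays, and 13.87, 14.04 and 13.63 on wild type arrays. Every VE array stood above the 6 others, and the ob/ob vehicle and wild type arrays overlapped. VE minus ob/ob vehicle was 2.08 ± 0.35 (SE), or 4.22-fold, with an adjusted p of 0.142 by limma. It passed in 2 of 21 other settings: without ob/ob vehicle array 1 it was 2.49 (adjusted p = 0.0301), and with array weights 2.21 (adjusted p = 0.0115).

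Rpl38, which in mice is needed for translation of a subset of Hox mRNAs, read 14.33, 14.42 and 13.15 on VE arrays, 13.26, 11.79 and 11.22 on ob/ob vehicle arrays and 10.69, 11.87 and 11.27 on wild type arrays. VE array 3 was just under ob/ob vehicle array 1, so these 2 groups overlapped. The difference was 1.88 ± 0.54, with an adjusted p of 0.717. Rpl21, a protein of the large subunit, read 16.40, 16.20 and 16.80 with VE, 14.94, 13.91 and 15.20 with vehicle in ob/ob mice and 15.42, 16.08 and 15.86 in wild type mice. Its 3 groups were apart, with ob/ob vehicle lowest and VE highest, and VE minus ob/ob vehicle was 1.78 ± 0.35 (adjusted p = 0.294).

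Rpl15, a core protein of the large subunit, read 15.88, 15.59 and 15.69 on VE arrays, 14.92, 13.97 and 14.10 on ob/ob vehicle arrays and 13.64, 14.48 and 13.55 on wild type arrays. VE was above both vehicle groups, which overlapped, and exceeded ob/ob vehicle by 1.39 ± 0.33 (adjusted p = 0.501). Rpl6, another large subunit protein, read 15.75, 14.89 and 15.37 with VE, 14.11, 13.60 and 13.93 in ob/ob vehicle and 12.22, 13.81 and 13.57 in wild type, a VE minus ob/ob vehicle difference of 1.46 ± 0.41 (adjusted p = 0.661). Rpl29, a heparin-binding protein of the large subunit, read 13.46, 13.37 and 13.82 with VE, 13.21, 12.15 and 12.12 in ob/ob vehicle and 11.90, 11.92 and 11.72 in wild type. Its VE values were the highest of the 3 groups, with ob/ob vehicle array 1 close to them, and the difference was 1.06 ± 0.31 (adjusted p = 0.717).

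Among small subunit genes the median difference was 0.42, with 20 of 24 above 0, against 0.61 and 34 of 39 in the large subunit. The largest was in Rps23, a protein of the decoding centre that bears on translational accuracy. It read 17.57, 17.00 and 17.31 on VE arrays, 16.25, 15.58 and 16.20 on ob/ob vehicle arrays and 16.33, 16.82 and 16.39 on wild type arrays. Here too the 3 groups were apart, in the order VE, wild type and ob/ob vehicle from high to low, and VE exceeded ob/ob vehicle by 1.28 ± 0.27 (adjusted p = 0.359). Rps6, the substrate of the S6 kinases downstream of mTORC1, read 16.59, 16.85 and 16.80 with VE, 16.43, 15.92 and 16.28 in ob/ob vehicle and 16.16, 16.79 and 16.48 in wild type. Its VE and ob/ob vehicle arrays did not overlap, and the difference was 0.54 ± 0.25 (adjusted p = 1.00).

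The stalk recruits the GTPases of translation. Rplp0, the stalk base, read 14.01, 13.69 and 13.92 on VE arrays, 13.21, 13.07 and 13.43 on ob/ob vehicle arrays and 12.36, 13.38 and 13.32 on wild type arrays, with VE above both other groups. Rplp1 read 17.32, 17.06 and 17.24 with VE, 16.85, 16.21 and 16.72 in ob/ob vehicle and 16.34, 17.23 and 16.35 in wild type. VE minus ob/ob vehicle was 0.64 ± 0.29 for Rplp0 and 0.61 ± 0.30 for Rplp1, and neither passed (adjusted p = 1.00 for both).

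Several members serve as reference genes in PCR. Rpl19 read 15.80, 15.54 and 15.83 on VE arrays, 14.89, 14.22 and 14.78 on ob/ob vehicle arrays and 15.37, 15.87 and 15.71 on wild type arrays. The ob/ob vehicle arrays were below all the others, and VE overlapped with wild type. VE minus ob/ob vehicle was 1.09 ± 0.25 (adjusted p = 0.482). Between the same groups Rpl32 differed by 0.89 ± 0.30 (adjusted p = 0.892), Rps18 by 0.83 ± 0.35 (adjusted p = 1.00) and Rps29 by 0.38 ± 0.37 (adjusted p = 1.00).

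For 9 members the mean was lower with VE than in ob/ob vehicle, and none passed. Rpl27 read 10.22, 10.09 and 10.10 on VE arrays, 10.75, 10.58 and 10.62 on ob/ob vehicle arrays and 10.28, 11.01 and 10.31 on wild type arrays. VE was below both other groups, and VE minus ob/ob vehicle was −0.51 ± 0.24 (adjusted p = 1.00). Rps14, a protein of the small subunit platform, read 12.84, 12.86 and 12.71 with VE, 13.53, 12.88 and 12.78 in ob/ob vehicle and 13.27, 14.00 and 13.64 in wild type. VE overlapped with ob/ob vehicle and lay below wild type, with differences of −0.26 ± 0.28 (adjusted p = 1.00) and −0.83 ± 0.28 (adjusted p = 0.0589). The other members below 0 were Rpl39l, Rpl22l1, Rps7, Rpl10l, Rps4x, Rps28 and Rpl37, between −0.41 and −0.02.

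Each ob/ob group was also compared with wild type, to describe leptin-deficient tissue with and without the extract. Relative to wild type, VE-treated ob/ob mice had 13 members that rose (12.4% of all clusters were called higher) and 0 that fell (7.58%). The median log2 difference was 0.47, against −0.07 over all clusters, with 48 members above 0 and 15 below, and after quantile normalization it was −0.06, with 29 above 0. After that normalization 5 members were higher (7.94%, against 9.62% of all clusters) and 4, namely Rpl27, Rps14, Rps24 and Rps3a1, were lower (6.35%, against 8.01%), so neither share exceeded that of all clusters. The groups did not overlap for 26 members upward (19.5% of all clusters) and 3 downward (17.7%). Without wild type array 1 the downward count was 5 (22.56% of all clusters), and without VE array 1 it was 7 (22.03%).

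The 13 were Rpl6, Rpl10a, Rpl15, Rpl17, Rpl22l1, Rpl28, Rpl29, Rpl31, Rpl38, Rps9, Rps15, Rps27l and Rpsa, some of them named here only because they passed. The largest difference was in Rpl38, at 2.69 ± 0.54 or 6.45-fold (adjusted p = 0.00752 by limma). Rpl6 rose by 2.14 ± 0.41 (adjusted p = 0.00578), Rpl28 by 2.07 ± 0.35 (adjusted p = 0.00322) and Rpl15 by 1.83 ± 0.33 (adjusted p = 0.00421). Rpl29 rose by 1.70 ± 0.31 (adjusted p = 0.00444). These 5 genes were called in each of the 21 other settings run, quantile normalization included.

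Rpl10a, a protein near the site where tRNA leaves the ribosome, read 14.95, 15.00 and 14.69 on VE arrays, 14.82, 13.82 and 13.70 on ob/ob vehicle arrays and 13.51, 13.65 and 13.24 on wild type arrays. All 6 ob/ob arrays were above the 3 wild type arrays, and the difference between VE and wild type was 1.41 ± 0.31 (adjusted p = 0.0109, called in 20 of the 21 settings). Rpsa, a small subunit protein also known as the laminin receptor, read 13.77, 12.91 and 13.69 with VE, 12.53, 12.46 and 12.80 in ob/ob vehicle and 12.43, 12.48 and 12.49 in wild type. It rose by 0.99 ± 0.26 (adjusted p = 0.0261, called in 13 settings), with VE array 2 nearest to the wild type arrays.

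The other 8 calls were made in 6 to 20 of the 21 settings. Rps9, a small subunit protein that rose by 1.28 ± 0.40 (adjusted p = 0.0493), was called in 6, and Rpl17 in 14. The number of members called higher was 6 without VE array 1 (9.52%, against 8.15% of all clusters) and 7 without wild type array 1 (11.1%, against 9.68%). It was 8 without VE array 3 (12.7%, against 9.53%), 9 without VE array 2 (14.3%, against 8.32%) and 18 without wild type array 2 (28.6%, against 11.5%), while 20.6% of members were called with all arrays. Markers of other cells moved with this comparison: 16 of 17 macrophage markers were higher (median 4.01) and 13 of 14 epithelial markers lower (median −4.05) in VE-treated ob/ob mice than in wild type. Of 13 adipocyte markers 2 were higher and 0 lower, with 12 above 0 and a median of 0.73. Their part in the members' values was not tested.

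**Figure D3:**
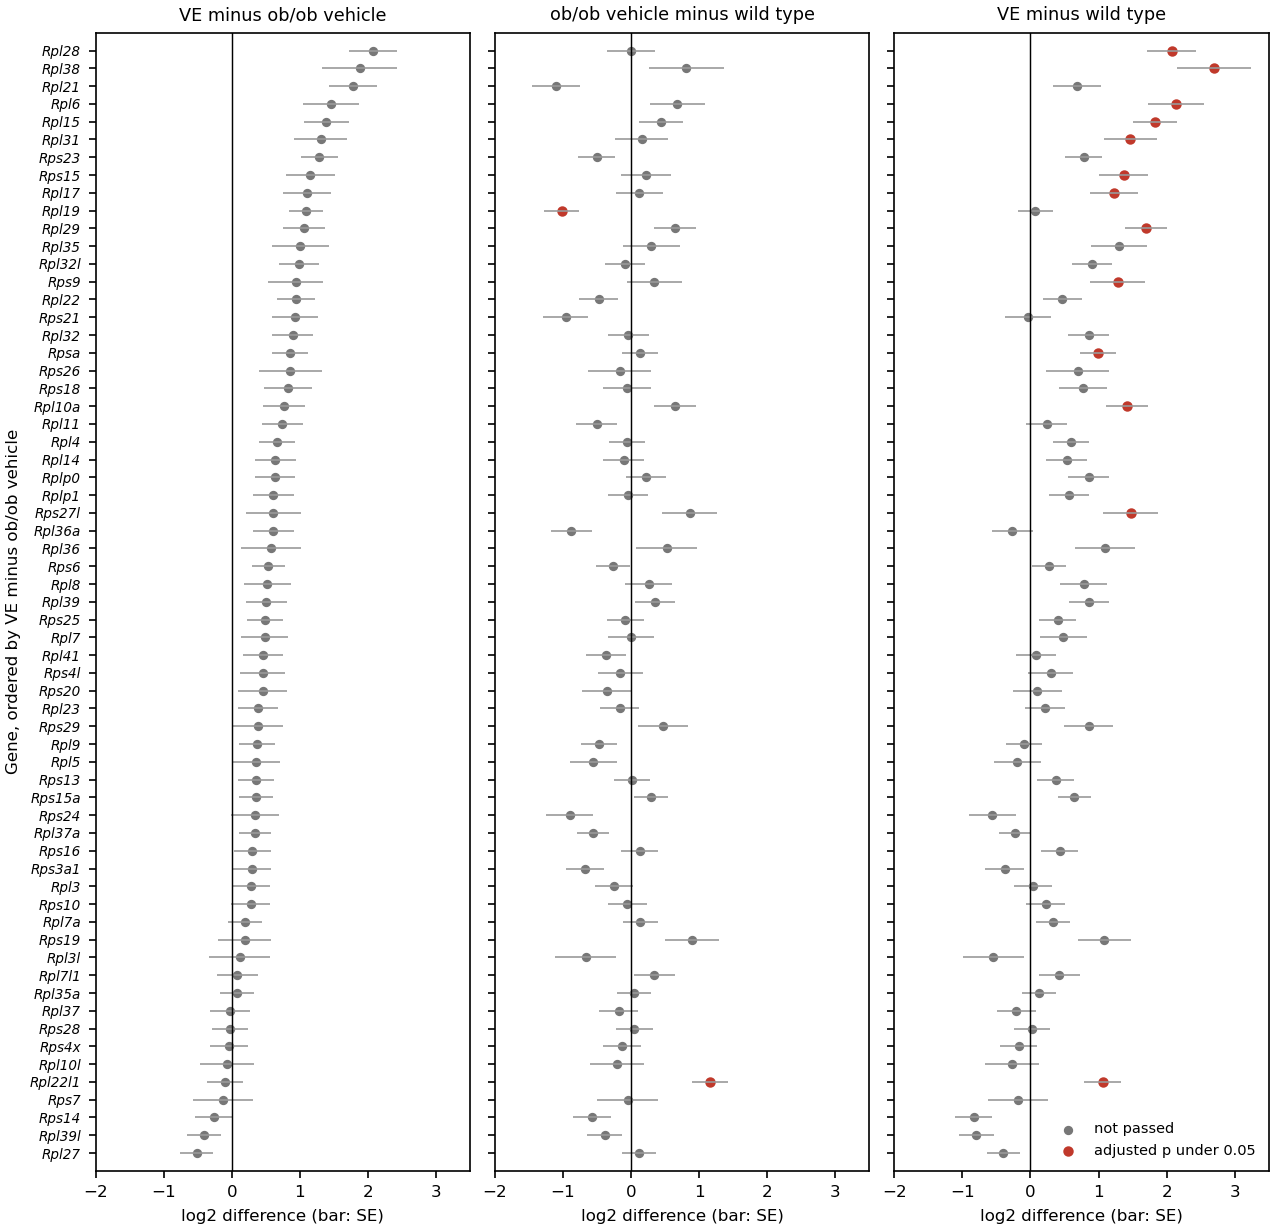
Points give each gene's log2 difference and bars its SE in the 3 comparisons, with genes in the same order from top to bottom, and red points have an adjusted p under 0.05. Against ob/ob vehicle nearly all VE differences lie right of 0 with none red, between ob/ob vehicle and wild type they scatter around 0 with Rpl22l1 and Rpl19 red, and between VE and wild type 13 are red.

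Few members were called between vehicle-treated ob/ob mice and wild type mice. Of the 63 members 1 rose and 1 fell, against 9.02% and 5.05% of all clusters. The median log2 difference was −0.05, against −0.04 over all clusters, with 27 members above 0, 35 below and Rpl7 at 0. After quantile normalization 10 members were lower (15.9%, against 6.14% of all clusters) and 1 was higher (1.59%, against 7.99%). The median had no settled sign: it was 0.02 after median centring, −0.40 after quantile normalization, −0.30 without ob/ob vehicle array 1 and 0.14 without wild type array 2. The arrays did not overlap for 3 members upward (15.7% of all clusters) and 8 downward (13.1%). Single arrays moved these counts. Upward they were 9 without ob/ob vehicle array 2 (14.29%, against 18.91% of all clusters) and 11 without wild type array 2 (17.46%, against 20.19%). Downward they were 19 without ob/ob vehicle array 1 and 16 without wild type array 1 (18.47% of all clusters in each case).

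Rpl22l1, the paralog of Rpl22, read 11.40, 11.33 and 11.04 on VE arrays, 11.01, 11.44 and 11.62 on ob/ob vehicle arrays and 9.81, 10.58 and 10.20 on wild type arrays. Every ob/ob array was above every wild type array, and the treated and untreated ob/ob arrays overlapped. It rose by 1.16 ± 0.27 in ob/ob vehicle (2.24-fold, adjusted p = 0.0178) and by 1.06 ± 0.27 in VE (adjusted p = 0.0214) relative to wild type. The first call was lost without ob/ob vehicle array 2 (adjusted p = 0.0687), without ob/ob vehicle array 3 (adjusted p = 0.0695) and without wild type array 1 (adjusted p = 0.0503).

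Rpl22 itself, an RNA-binding protein whose loss in mice raises Rpl22l1, read 14.48, 13.90 and 14.15 with VE, 13.61, 12.97 and 13.12 in ob/ob vehicle and 13.33, 14.10 and 13.70 in wild type. The ob/ob vehicle arrays were below the VE arrays and overlapped with wild type. Neither difference passed: VE minus ob/ob vehicle was 0.94 ± 0.29 (adjusted p = 0.753) and ob/ob vehicle minus wild type −0.48 ± 0.29 (adjusted p = 0.318).

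Rpl19, a protein of an intersubunit bridge, was the member that fell in ob/ob vehicle relative to wild type, by 1.02 ± 0.25 on the log2 scale (0.493-fold, adjusted p = 0.0245). Its VE arrays differed from wild type by 0.07 ± 0.25 (adjusted p = 0.869). The call between ob/ob vehicle and wild type was lost without ob/ob vehicle array 2 (adjusted p = 0.0984), without ob/ob vehicle array 3 (adjusted p = 0.0503) and without wild type array 2 (adjusted p = 0.0661). Rpl21, at −1.10 ± 0.35 (adjusted p = 0.0663), had the largest negative difference and did not pass. In the same comparison Rps21 was at −0.96 ± 0.33 (adjusted p = 0.0876), Rps24, a small subunit protein, at −0.90 ± 0.35 (adjusted p = 0.119) and Rpl36a at −0.88 ± 0.30 (adjusted p = 0.0851). For Rps19, a small subunit protein mutated in Diamond-Blackfan anaemia in humans, the difference was 0.90 ± 0.39 (adjusted p = 0.166).

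**Figure D4:**
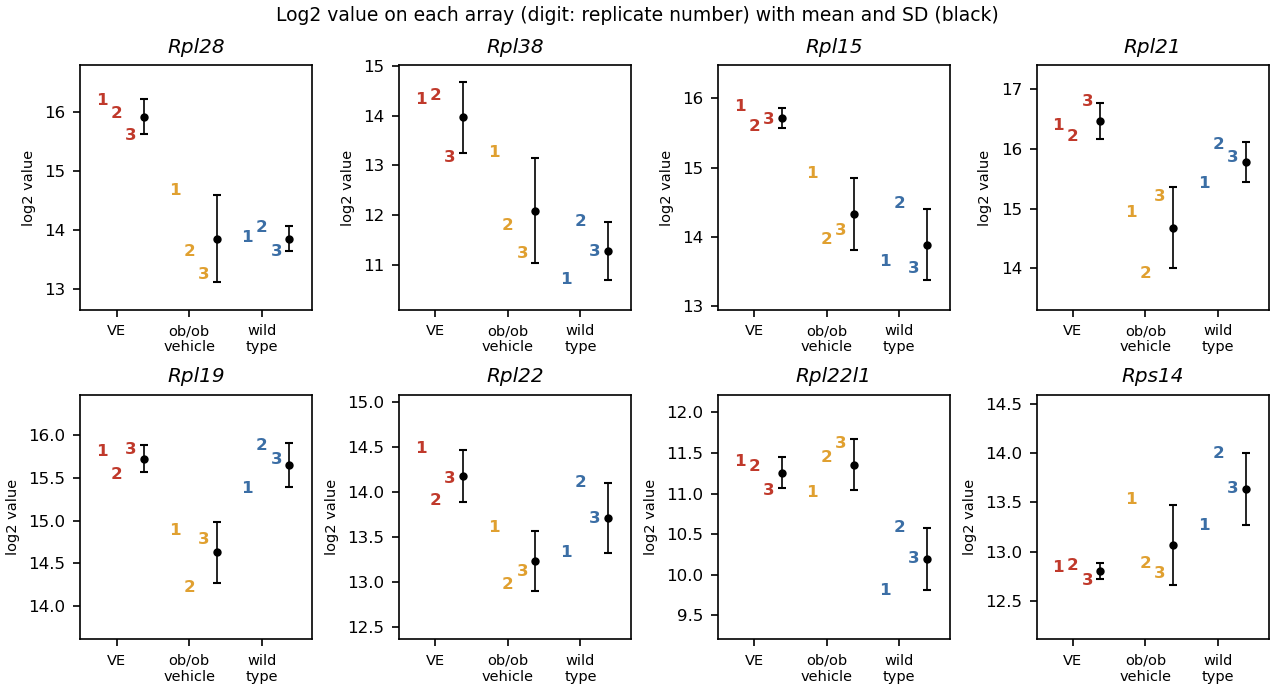
Log2 values of 8 ribosomal protein genes are plotted by group, each digit marking the array of that replicate number and black points with bars the mean and SD of 3 arrays. Rpl28, Rpl15 and Rpl21 lie highest on the VE arrays, Rpl19 lies lowest on the ob/ob vehicle arrays, Rpl22l1 is higher on all 6 ob/ob arrays than on wild type arrays, and Rps14 is lowest on average with VE.

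Macrophage and epithelial markers moved with ob/ob vehicle minus wild type as well. Of 17 macrophage markers 16 were higher (median 4.63), and of 14 epithelial markers 13 were lower (median −4.08). Of 13 adipocyte markers 1 was higher and 0 lower (median 0.36). Between VE and ob/ob vehicle the macrophage and epithelial medians were 0.12 and −0.12, those of adipocyte and lymphocyte markers 0.10 and 0.05, and 0 members of these 4 marker lists passed. Above 0 were 10 of 17 macrophage, 4 of 14 epithelial, 11 of 13 adipocyte and 7 of 10 lymphocyte markers. Their part in the differences of the ribosomal protein genes was not tested.

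Ordered by group means, VE was highest for 45 members: 24 had ob/ob vehicle next and wild type lowest, and 21 had wild type next and ob/ob vehicle lowest. The second order was found in 33.33% of members and 6.806% of all clusters, the first in 38.1% and 22.1%. Wild type was highest for 14 members and ob/ob vehicle for 3. Over the 3 groups together, limma's moderated F test called 13 members, against 15.7% of all clusters. Without VE array 1 it called 4. The share of all clusters in that setting is not given here, so the fall cannot be set against it.

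Paralogs, some of them with restricted expression, were measured beside their parent genes where those were analysed, and none was called between VE and ob/ob vehicle. Rpl3l, the muscle paralog of Rpl3, lay at 3.32, 3.19 and 2.89 on VE arrays, 3.09, 3.10 and 2.86 on ob/ob vehicle arrays and 2.86, 4.91 and 3.27 on wild type arrays, with wild type array 2 apart from the rest. Rpl39l and Rpl10l, both prominent in testis, spanned 4.11 to 5.51 and 6.02 to 7.62 over the 9 arrays. These 2 and Rpl3l are the members not above the array median throughout. Of Rpl39l, the VE arrays were below ob/ob vehicle and wild type, by −0.41 ± 0.26 (adjusted p = 1.00) and −0.80 ± 0.26 (adjusted p = 0.0529).

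Of the parent genes, Rpl3 differed by 0.29 ± 0.28 and Rpl39, a small protein of the exit tunnel, by 0.51 ± 0.30 between VE and ob/ob vehicle (adjusted p = 1.00 for both). Rps27l, a p53-induced paralog of Rps27, read 11.94, 11.41 and 12.19 on VE arrays, 11.96, 10.65 and 11.10 on ob/ob vehicle arrays and 10.87, 10.55 and 9.71 on wild type arrays. Its VE values overlapped with ob/ob vehicle and were above wild type, by 1.47 ± 0.40 (adjusted p = 0.0291). Rpl7l1 and Rps4l, at 0.08 ± 0.30 and 0.46 ± 0.33 between VE and ob/ob vehicle, and their counterparts Rpl7 and Rps4x, at 0.48 ± 0.34 and −0.04 ± 0.28, did not pass (adjusted p = 1.00 for each).

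Members with the start run printed above and members without it differed in median. The 12 with a run had a median VE minus ob/ob vehicle difference of 0.88, and the 38 without one 0.38. Within the run class the span was wide, with Rpl28 at 2.08 and Rpl35a at 0.08. The 21 members with CCGGAAG had a median of 0.74 and the 29 without it 0.36. These are descriptions with no test, and 13 members had no sequence to class.

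Other genes of the translation apparatus were read from lists. Among 76 mitochondrial ribosomal protein genes, which serve the separate ribosome of mitochondria, VE minus ob/ob vehicle had a median of 0.40, with 65 above 0 and none passing. The median was 0.28 over 29 initiation factors, 0.21 over 11 elongation factors and other TOP transcripts, 0.12 over 31 ribosome biogenesis genes, and 0.19 each over 16 genes of RNA polymerase I and 13 of the mTOR pathway. None of these passed in limma's test. At an unadjusted p under 0.05, 17 mitochondrial genes were higher and 1 lower. In the other lists 4, 3, 2, 1 and 3 genes were higher, in the order given, and 0 lower. Over all 19572 clusters 569 were higher and 324 lower (2.91% and 1.66%). Fau, a small subunit protein that the symbol rule leaves out, read 12.99, 12.82 and 12.70 on VE arrays, 12.04, 10.99 and 11.39 on ob/ob vehicle arrays and 11.84, 12.50 and 11.77 on wild type arrays. Its VE arrays were above all others, by 1.36 ± 0.31 relative to ob/ob vehicle (adjusted p = 0.473).

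**Figure D5:**
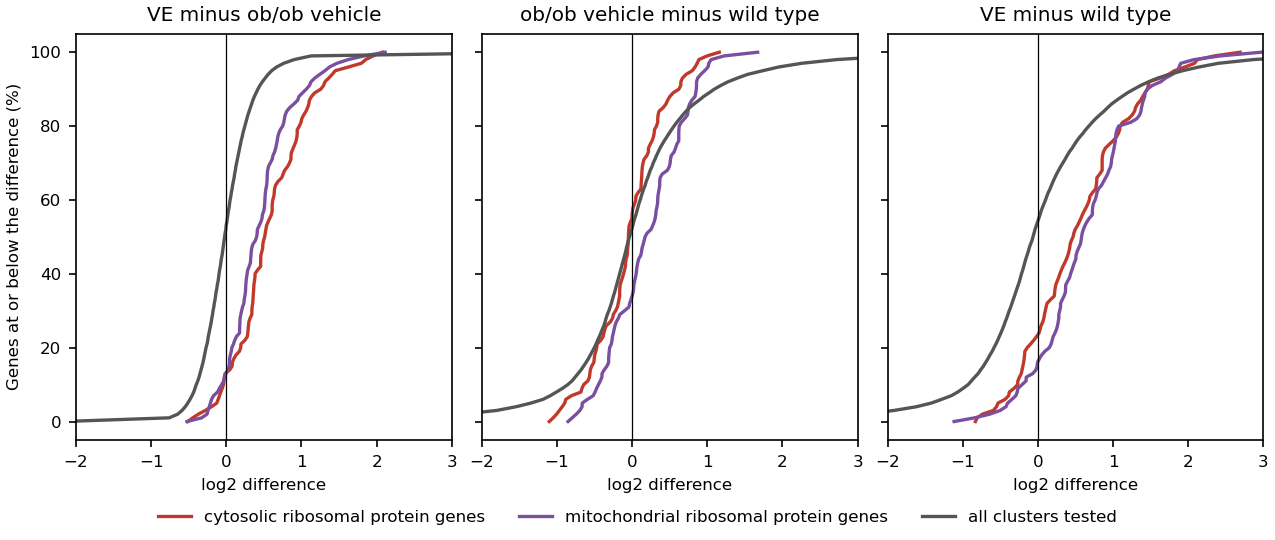
Curves give the percentage of genes at or below each log2 difference for 63 cytosolic ribosomal protein genes, 76 mitochondrial ribosomal protein genes and all 19572 clusters tested, with the axis limited to −2 to 3. In VE minus ob/ob vehicle both ribosomal curves lie right of the curve of all clusters, with medians of 0.51 and 0.40 against −0.02.

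The members are bright and short, and the differences of all clusters varied with both properties, though not steadily with span. In the brightest of 5 equal bins of clusters, which holds 57 members, the median over all its clusters, members included, was 0.06 for VE minus ob/ob vehicle, 0.48 for VE minus wild type and 0.33 for ob/ob vehicle minus wild type. The 57 members had 0.52, 0.48 and −0.04. Genes of members span 592 to 11774 bp, with a median of 3352 bp, against 17781 bp over all clusters. The shortest of 5 equal bins by span holds 44 members. Its medians over all clusters, in the same order of comparisons, were −0.06, −0.18 and −0.08. Its members had 0.555, 0.55 and −0.02. In the longest bin, which holds 0 members, the medians were −0.05, −0.12 and −0.09. Among the 302 other clusters in both the shortest and the brightest of 5 bins, the medians were 0.30, 0.94 and 0.44 in the same order of comparisons, and for the 40 members of that class 0.57, 0.55 and 0.00. Of these 302 clusters 74.5%, 80.46% and 70.2% were above 0 in that order, against 85.71%, 76.19% and 42.86% of all 63 members.

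The spread of values on an array moved with the groups too: the SD over clusters was 3.27, 3.23 and 3.24 on VE arrays, 3.13, 3.17 and 3.17 on ob/ob vehicle arrays and 2.86, 3.07 and 3.02 on wild type arrays. The slope of values on log10 span was −0.01, −0.00 and −0.01 on VE arrays, −0.11, 0.05 and 0.06 on ob/ob vehicle arrays and −0.13, 0.14 and 0.02 on wild type arrays. On the same arrays the members' median deviation was 0.53, 0.21 and 0.30 with VE, 0.25, −0.54 and −0.29 in ob/ob vehicle and −0.37, 0.19 and −0.24 in wild type. With each array's slope removed, the members' median was 0.50 between VE and ob/ob vehicle and 0.42 between VE and wild type. In the first comparison 0 members were higher (0.0358% of all clusters) and 0 lower (0%). In the second 12 were higher (19%, against 12.3% of all clusters) and 2 lower (3.17%, against 8.73%). The part of brightness, span and spread in the members' values beyond this was not tested.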

How the data were processed

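Transcript levels were measured on 9 Clariom S arrays, 3 per group, 1 array per sample, from 100 ng of RNA hybridized for 16 hours, per the labels' protocols and design text. The deposited values are on a log2 scale, with 2 decimals, 1 for each cluster on each array. Per the design text, the authors normalized the signals by SST-RMA, a signal space transformation with robust multi-chip averaging that stretches contrast, in Transcriptome Analysis Console (4.0.2 per the design text, 4 per the submitters' processing notes). Fold sizes therefore belong to that scale, with values from 2.07 to 19.91. The genome build was not given in the sources used here. With no read depth, precision is set by the number of arrays. The design text gives 3 mice per group; detection calls were not used here.

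Of 22206 clusters, 19572 carry 1 symbol, 0 several and 2634 none, and the last were left out of the tests. All 63 members matched the RefSeq gene table (GRCm38.p6, used for names and spans) by entrez ID. The 3 group means were estimated in 1 model of all arrays (limma 3.58.1, R 4.3.3), moderated by empirical Bayes with 4.02 prior degrees of freedom. Tests are two-sided, adjustment followed Benjamini and Hochberg within a comparison, over 19572 clusters, a call is an adjusted p under 0.05, SE is that of the log2 difference, and comparisons share groups. For 3 arrays against 3, an exact permutation test has a smallest p of 0.1.

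The members, lists, tests and alternatives were chosen with earlier results of these data known. Named genes are, per comparison, 8 members from either end of the ranking by moderated t, and a fixed list of PCR reference genes, stalk proteins, Rps6 and paralogs with their parents. Others are named where they passed, for their sequence or as groups. The fit was tested on simulated data, and the outcome is not given here. Alternatives comprised samples in the fit, replicate block, prior, normalization, filters, array weights, span trend, thresholds and each array left out.

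Replicate numbers are shared by the titles, but same-numbered arrays of 2 groups did not deviate together throughout: correlations across genes, which are not independent replicates, ran from −0.06 to 0.18. The arrays were not treated as paired.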

Additional observations from a re-analysis of the deposited data

How the results depend on the processing

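For VE minus ob/ob vehicle, 0 members passed in either direction in all settings except 3 for higher: 1 with array weights, 1 without ob/ob vehicle array 1 and 22 at the submitters' threshold (fold over 1.1, unadjusted p under 0.05). Leaving out single arrays gave 0 to 1 higher and medians of 0.32 to 0.74. For VE minus wild type, 13 members were higher. Quantile normalization gave 5 (9.62% of all clusters) and the submitters' threshold 25 (18.3%). An adjusted p under 0.1 gave 21, and leaving out single arrays 6 to 18. For an adjusted p under 0.1 the share of all clusters is not given here, in this or the other comparisons. Against 0 lower, the trended prior gave 1 (7.74% of all clusters), quantile normalization 4 (8.01%) and removal of the span trend 2 (8.73%). The submitters' threshold gave 2 (15.6% of all clusters), an adjusted p under 0.1 gave 2, and leaving out single arrays 0 to 1. The median of 0.47 was −0.0633 after quantile normalization and 0.29 to 0.66 with single arrays left out. For ob/ob vehicle minus wild type, 1 higher and 1 lower became 0 and 0 in a fit of only the 2 groups compared. Leaving out wild type arrays 1 and 2 gave 0 higher and 1 lower, and for VE minus wild type 10 higher and 0 lower, but this sets each group against 1 wild type array, assumed to vary like the other groups. That array also held epithelial signal (marker median 7.89), so the setting does not remove it. There were 2 higher at the submitters' threshold (15.7% of all clusters). Lower were 10 after quantile normalization (6.14% of all clusters), 7 at the submitters' threshold (12.7%) and 4 at an adjusted p under 0.1. Leaving out single arrays gave 0 to 1 higher, 0 to 3 lower and medians of −0.30 to 0.14, and the median after quantile normalization was −0.40. The F test's 13 members were 4 to 15 with single arrays left out, settings for which its share of all clusters is not given here. No result reversed a call, and the causes were not tested. In the other settings each count of called members stayed within 1.5 times. The members above 0 in ob/ob vehicle minus wild type, 27 in all, were 13 after quantile normalization and 16 without ob/ob vehicle array 1.

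With the replicate number as a block, 0 members and 0% of all clusters passed in VE minus ob/ob vehicle. In VE minus wild type 12 members were higher (12.1% of all clusters) and 0 lower (7.01%). In ob/ob vehicle minus wild type 1 was higher (8.44% of all clusters) and 1 lower (4.71%). The F test called 10, and its share of all clusters in this setting is not given here. The pairing is not given by the labels, and not every sample correlated best with its own number. An alternative that removes the trend on protein length was not run, since no protein lengths were used here. With 3 arrays a group and no detection calls, a p that misses the threshold does not show equal levels.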

Other observations

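The 2 mitochondrial ribosomal protein genes with the lowest adjusted p between VE and ob/ob vehicle were Mrpl52 and Mrpl33. Mrpl33, a protein of the large mitochondrial subunit, read 12.87, 12.74 and 12.56 on VE arrays, 11.17, 10.31 and 10.35 on ob/ob vehicle arrays and 9.68, 10.28 and 9.30 on wild type arrays. VE stood above both other groups, by 2.11 ± 0.32 relative to ob/ob vehicle (limma adjusted p = 0.0804) and 2.97 ± 0.32 relative to wild type (adjusted p = 2.30e-04). Mrpl52 read 7.40, 7.43 and 7.57 with VE, 6.21, 5.38 and 5.59 in ob/ob vehicle and 5.82, 6.15 and 6.15 in wild type. VE was again highest, by 1.74 ± 0.26 relative to ob/ob vehicle (adjusted p = 0.0734) and 1.43 ± 0.26 relative to wild type (adjusted p = 0.00422). Pabpc1, the poly(A)-binding protein and itself a TOP transcript, read 17.31, 17.17 and 17.18 with VE, 16.52, 15.94 and 16.56 in ob/ob vehicle and 15.06, 15.47 and 15.29 in wild type. Its 3 groups were apart, and it rose relative to wild type by 1.95 ± 0.24 in VE (adjusted p = 5.10e-04) and by 1.07 ± 0.24 in ob/ob vehicle (adjusted p = 0.0154). VE minus ob/ob vehicle was 0.88 ± 0.24 (adjusted p = 0.625).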
